A study of Mus musculus with 8 samples.

Results

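A set of 10 interferon-stimulated antiviral genes, out of the 155 distinct features in the authors' deposited table, was examined in neural stem cells after knockdown of the long non-coding RNA Paupar. They are Oas1a, Oasl2, Gbp3, Mx2, Bst2, Trim30a, Parp9, Rnf213, Ifi44 and Lgals9. The genes were picked by symbol and were chosen by their higher level in the knockdown cells, with earlier results of these data known, so their direction and their place in the table are a description and no finding. All 10 were found, each in 1 row.

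Neural stem cells dissected from the subventricular zone of mouse brain were cultured in medium with EGF and FGF-2. One group of 4 samples was labelled shPaupar, for a short hairpin RNA against Paupar, and the other group of 4 samples was labelled control. The labels give nucleofection for both groups and do not state which construct the control cells received, nor the age, sex or strain of the animals, nor whether separate animals or cultures stand behind the 4 samples of each group. RNA sequencing values were used as 1 level per group, without a stated normalization, so no value per sample, no spread between replicates and no depth can be given here.

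Interferons are secreted when a cell senses viral nucleic acid, and they act through receptors and JAK-STAT signalling to switch on a large set of effector genes. The complex that carries the type I signal to the DNA, ISGF3, binds the interferon-stimulated response element (ISRE), whose core repeats the letters GAAA, while genes that answer to type II interferon often carry the gamma-activated sequence (GAS). Neural stem cells are known to express part of this set at rest, as other stem cells do. The 10 genes cover several steps of the response. They include enzymes that sense double-stranded RNA, large GTPases, a factor that holds virus particles at the cell surface, and regulators that attach ubiquitin or ADP-ribose to proteins.

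The promoters of these genes are shown first. The genes were not chosen by their sequences but as interferon-stimulated genes, a class in which the ISRE is common. A high share of the ISRE is therefore likely from the choice of class and is no finding about these cells. RefSeq promoter entries (build GRCm38.p6, 250 bases before to 50 after the start site) were found for 8 of the 10 genes, not for Mx2 or Parp9. The ISRE core was searched on both strands as GAAA, any 2 bases, GAAA. It was present in the entries of 5 of the 8 genes (62.5%), against 1079 of all 27025 genes with an entry (3.99%). These are Oas1a, Bst2, Gbp3, Trim30a and Lgals9, whose 150 bases before the start site follow, 5′ to 3′ on the strand of the gene, with the ISRE core in capitals.
Oas1a (chr5:120907526-120907675, minus strand): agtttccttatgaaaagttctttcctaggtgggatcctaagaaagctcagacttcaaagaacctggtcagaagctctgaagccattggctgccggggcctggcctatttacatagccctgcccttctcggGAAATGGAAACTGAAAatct
Bst2 (chr8:71537473-71537622, minus strand): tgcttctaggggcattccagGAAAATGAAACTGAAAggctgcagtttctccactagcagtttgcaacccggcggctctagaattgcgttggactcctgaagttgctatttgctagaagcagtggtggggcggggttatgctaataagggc
Gbp3 (chr3:142559894-142560043, plus strand): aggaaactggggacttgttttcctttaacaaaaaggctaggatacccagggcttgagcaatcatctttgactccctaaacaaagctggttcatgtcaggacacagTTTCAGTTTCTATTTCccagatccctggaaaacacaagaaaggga
Trim30a (chr7:104465194-104465343, minus strand): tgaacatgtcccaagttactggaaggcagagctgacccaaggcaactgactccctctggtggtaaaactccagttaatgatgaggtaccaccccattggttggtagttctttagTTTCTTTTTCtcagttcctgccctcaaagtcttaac
Lgals9 (chr11:78984925-78985074, minus strand): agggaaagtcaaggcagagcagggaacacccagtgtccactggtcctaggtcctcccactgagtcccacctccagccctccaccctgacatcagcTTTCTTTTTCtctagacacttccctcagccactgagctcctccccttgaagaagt

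In Oas1a, Bst2 and Gbp3 a pair of ISRE cores overlapped to give the same 16-letter form, which is the ISRE core followed by CT and a further GAAA and which on the strand of Gbp3 reads as its reverse complement. In all, 9 of the 27025 genes (0.0333%) held this longer form in a RefSeq entry, and 3 of the 9 were members of the set. The other 6 were Oas1c, Oas1g, Apol9a, Apol9b, Rbm43 and Olfr1499, none of which is a row of the table used here. The form was written down after the promoters had been read, so its count is a description of these sequences. With the core extended by CT alone, 4 of the 8 genes matched (Trim30a in addition), against 82 of the 27025 genes (0.303%).

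The matches lay close to the start site in 4 of the 5 genes. Counted from the start site, with the base before it as -1, the pair of cores spanned bases -20 to -5 in Oas1a and -45 to -30 in Gbp3. The core lay at -36 to -27 in Trim30a and at -55 to -46 in Lgals9, which had a further core after the start site, at 15 to 24. In Bst2 the pair was farther upstream, at -130 to -115. The GAS letters, TTC, any 3 bases, GAA, were present in Oas1a (-98 to -90) and in Bst2 (-136 to -128), where they overlapped the ISRE core, that is in 2 of the 8 genes, against 2582 of the 27025 genes (9.55%). Ifi44, Oasl2 and Rnf213 did not hold the ISRE core in this window, and a match or its absence says nothing of binding.

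**Figure D1:**
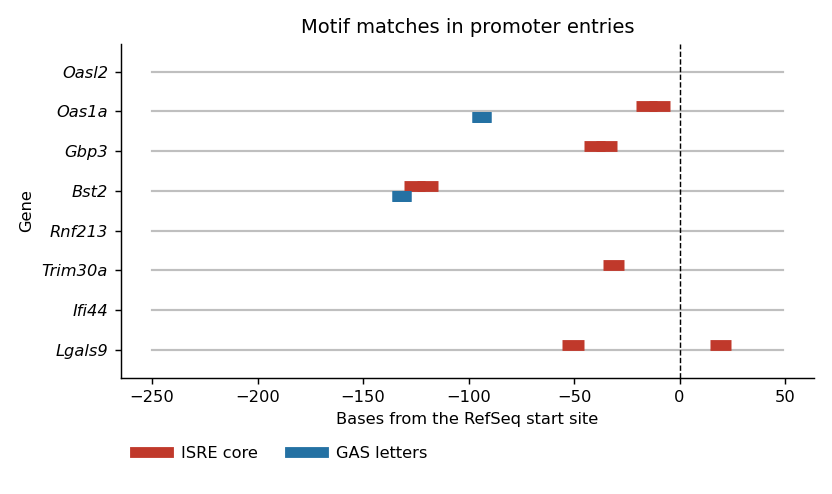
Positions of the ISRE core (red) and of the GAS letters (blue) in the RefSeq promoter entries of 8 antiviral genes, in bases from the start site (dashed line); grey lines show the window searched. For Gbp3 and Trim30a, which have 2 entries each, matches of the upstream start site are drawn; the downstream entry of Trim30a also holds a core, at 2 to 11. Cores sit before the start site in 5 genes, as overlapping pairs in Oas1a, Gbp3 and Bst2.

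In the remaining features of the authors' deposited table the ISRE core was counted in the same way. Of those higher in shPaupar cells, 0 of 28 genes with a promoter entry held it, and of those lower, 7 of 73 did. None of these other genes, higher or lower, held the core extended by CT (0 of 28 and 0 of 73). These shares are counts of letters in a fixed window and were not tested against each other.

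**Figure D2:**
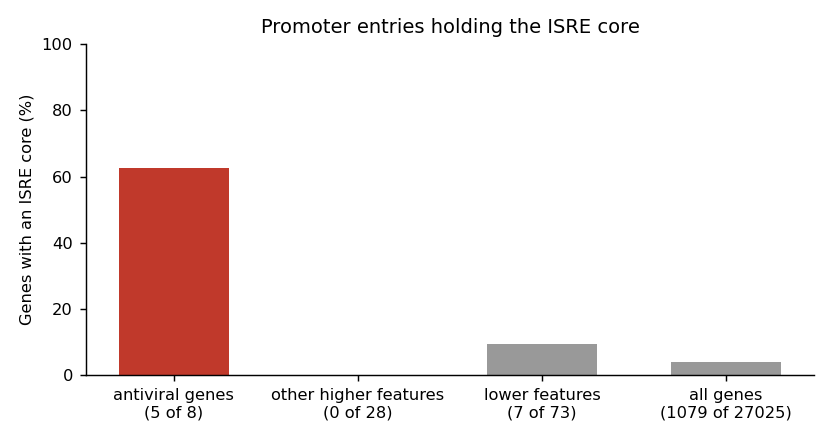
Percentage of genes whose RefSeq promoter entry holds the ISRE core, for the antiviral genes, for the other features higher and lower in shPaupar cells, and for all genes with an entry. The bars stand at 62.5% for the antiviral genes and 3.99% for all genes, and the other higher features have 0 of 28. The antiviral genes were chosen as an interferon-stimulated class, so a high share is likely beforehand.

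All 10 genes were higher in shPaupar than in control cells, by 1.28-fold to 1.69-fold, with a median of 1.41-fold (log2 ratio of the levels 0.49). As a background, 100% of the 155 features pass the adjusted p of 0.05 in the authors' deposited table and 34.8% of them (54) were higher in shPaupar cells. That share was 32.1% (35 of 109) among features that reach a level of 100 in either group and are not listed at 0 in the other, and 28.9% (33 of 114) among features whose listed locus equals an annotated gene span. Because the genes were chosen from this contrast, nothing is read from their count against these shares. In bulk RNA, more RNA per cell and more cells that express a gene cannot be told apart.

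**Figure D3:**
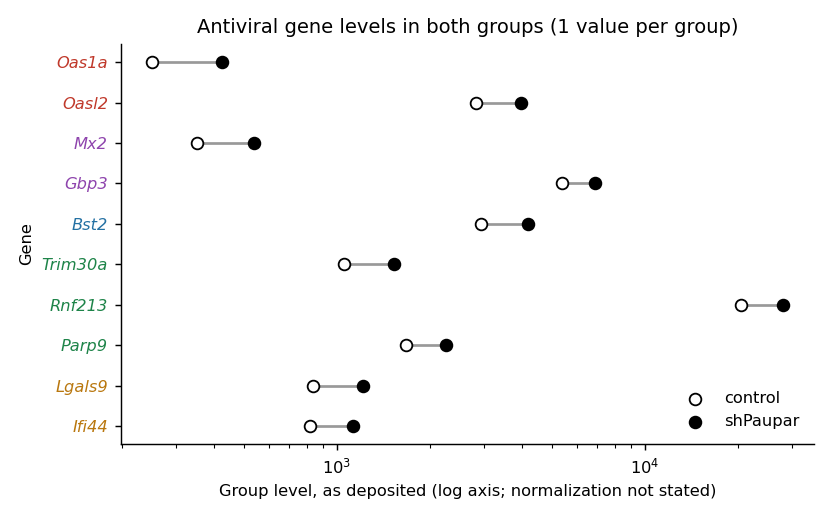
Level of each gene in control (open) and shPaupar cells (filled), 1 value per group, on a log axis; gene names are coloured by role (red oligoadenylate synthetases, purple GTPases, blue tetherin, green regulators, ochre other effectors). Filled points lie to the right of open points for all 10 genes, from 251 against 424 for Oas1a to 20532 against 28054 for Rnf213.

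The oligoadenylate synthetases bind double-stranded RNA and make short oligoadenylates that activate the ribonuclease RNase L. Oas1a (ENSMUSG00000052776, chromosome 5, 120896256 to 120907521) had a level of 251 in control and 424 in shPaupar cells, a log2 ratio of 0.76 and 68.8% higher, the largest relative difference of the 10. Oasl2 (ENSMUSG00000029561, chromosome 5, 114896936 to 114912234), an oligoadenylate synthetase-like protein with ubiquitin-like domains, was at 2830 and 3959, a log2 ratio of 0.48. The pair lie 5.98 Mb apart on chromosome 5 and so are not neighbours. Oasl2 has the smallest adjusted p of the set (0.000442) and Oas1a that of 0.00123 in the authors' deposited table. The value for Oas1a is uncertain, since 40.9% of the 100-base stretches of its longest annotated transcript also occur in a transcript of its paralog Oas1g, whereas 0% of those of Oasl2 occur in another gene.

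Large GTPases of the interferon response assemble on membranes and around invading particles. Gbp3 (ENSMUSG00000028268, chromosome 3, 142560026 to 142573209), a guanylate-binding protein, differed least, at 5381 in control and 6874 in shPaupar cells, a log2 ratio of 0.35. Mx2 (ENSMUSG00000023341, chromosome 16, 97535308 to 97560900), a dynamin-like GTPase, was at 351 and 539, a log2 ratio of 0.62 and the second largest of the set. The GENCODE annotation types Mx2 as a polymorphic pseudogene, so its RNA level need not stand for a working protein in these cells. Adjusted p-values in the authors' deposited table were 0.0383 for Gbp3 and 0.0426 for Mx2. Few of their 100-base stretches occur in a paralog, 0.929% for Gbp3 (in Gbp7) and 1.72% for Mx2 (in Mx1).

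Tetherin, the product of Bst2 (ENSMUSG00000046718, chromosome 8, 71534255 to 71537456), is a membrane protein that holds budding enveloped viruses at the cell surface. Its level was 2946 in control and 4159 in shPaupar cells, a log2 ratio of 0.50, near the median of the set. Bst2 has an adjusted p of 0.00123 in the authors' deposited table, overlaps no annotated gene and shares 0% of its 100-base stretches with other genes.

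Of the regulators that act through ubiquitin or ADP-ribose, 3 are in the set, and they differed by less from each other than the members of the synthetase or the GTPase pair. Trim30a (ENSMUSG00000030921, chromosome 7, 104409025 to 104465193), a mouse tripartite motif protein known to dampen NF-kappaB signalling, was at 1056 in control and 1536 in shPaupar cells, a log2 ratio of 0.54. Rnf213 (ENSMUSG00000070327, chromosome 11, 119393100 to 119487418), a very large E3 ubiquitin ligase with an ATPase core, was at 20532 and 28054, a log2 ratio of 0.45. Parp9 (ENSMUSG00000022906, chromosome 16, 35938470 to 35972605), which works with the ubiquitin ligase DTX3L, was at 1678 and 2266, a log2 ratio of 0.43. In the authors' deposited table their adjusted p-values were 0.00256 for Trim30a, 0.0454 for Rnf213 and 0.0178 for Parp9.

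Reads of these regulators could hold reads of other genes. Parp9 overlaps 2 annotated genes on the opposite strand, among them Dtx3l, by up to 5854 bases, and Rnf213 overlaps A930037H05Rik there by 38631 bases. The use of strand in the counting is not given in the sources used here, so reads of such partners cannot be told apart. For Trim30a, 4.79% of the 100-base stretches occur in the paralog Trim30d.

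The remaining 2 effectors were close to the median of the set. Lgals9 (ENSMUSG00000001123, chromosome 11, 78962974 to 78984946) encodes galectin-9, a secreted lectin that binds galactose-containing glycans, and was at 834 in control and 1212 in shPaupar cells, a log2 ratio of 0.54. Ifi44 (ENSMUSG00000028037, chromosome 3, 151730922 to 151749960), an interferon-induced cytoplasmic protein, was at 820 and 1124, a log2 ratio of 0.46. Their adjusted p-values were 0.00679 and 0.0393 in the authors' deposited table. Both share 0% of their 100-base stretches with other genes and overlap none.

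By size of the difference, the order from the largest log2 ratio was Oas1a, Mx2, Trim30a, Lgals9, Bst2, Oasl2, Ifi44, Rnf213, Parp9 and Gbp3. The roles did not separate in this order. The oligoadenylate synthetases spanned log2 ratios of 0.48 to 0.76, the GTPases 0.35 to 0.62 and the ubiquitin or ADP-ribose regulators 0.43 to 0.54, so that each range overlapped the others. Errors could only be derived by assuming that a Wald test, two-sided and normal, lies behind the p-values of the authors' deposited table. The standard errors of the log2 fold changes were then 0.0937 (Gbp3) to 0.166 (Mx2). The 95% intervals derived in this way all lie above 0, as selection by p-value requires, and all hold the values between 0.444 and 0.537. On that assumption no gene, Oas1a included, has an interval clear of another's.

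**Figure D4:**
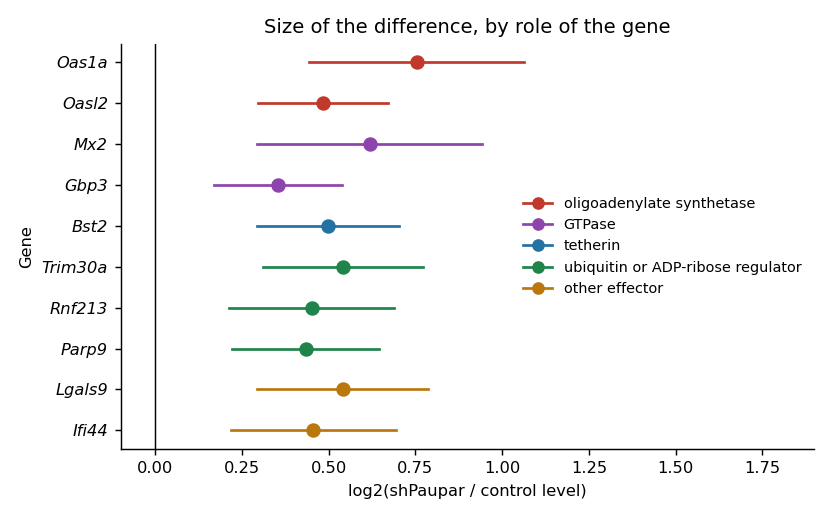
Log2 ratio of the shPaupar to the control level for each gene (points, coloured by role). Bars are 95% intervals derived from the authors' p-values on the assumption of a Wald test. The intervals of all 10 genes overlap between 0.444 and 0.537.

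The absolute levels spread far more widely than the differences. Since longer transcripts give more reads, levels were divided by the length of the merged annotated exons, which holds only if the deposited levels are not already corrected for length. Per kilobase, Bst2 was the most abundant in control cells (3263 per kb, 4606 in shPaupar cells), followed by Gbp3 (1648 per kb) and Rnf213 (1216 per kb). Rnf213 leads the list before this division through its 16.9 kb of exons. Oasl2 (444 per kb), Lgals9 (390), Parp9 (344) and Trim30a (257) formed the middle, and Ifi44 (134), Oas1a (133) and Mx2 (97.2) the low end, 33.6-fold below Bst2. Divided by the longest annotated transcript instead, Oasl2 was at 906 per kb, apart from the middle, and Ifi44 at 202 per kb. With no replicate values, neighbours in this order cannot be called different.

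Members with lower control levels as deposited, not divided by length, tended to have larger relative differences. Across the 10 genes the Spearman correlation between the control level and the log2 ratio was -0.73, given as a description without a test. The table lists features selected by p-value, which at low levels asks for a larger ratio, and the 10 genes share the same libraries. The control level is also the divisor of the ratio. Both favour a negative correlation by construction, so nothing is read from it.

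The differences were of a size common among well expressed features of the authors' deposited table that were higher in shPaupar cells. At a level of 100 or more in both groups, which all 10 genes reach, 15 other features were higher, with a median log2 ratio of 0.47 against 0.49 for the 10 genes and a range of 0.37 to 4.54. Among the 15 is Gm4951 (log2 ratio 0.72), whose description names an interferon inducible GTPase. Of these 15, Arl5b, Zfp12 and Ctnnb1 exceeded Oas1a, 12 fell within the range of the 10 genes and 0 lay below Gbp3. The 15 were not limited to features whose locus equals an annotated gene span, as the loci of the 10 genes do. A further 10 higher features reached 100 in shPaupar cells alone, a condition that itself asks for a large ratio, and are left out of this comparison. None of the 10 was listed at 0 in a group, against 23 of the 155 features. At a stricter adjusted p of 0.01 in the authors' deposited table, 5 of the 10 are left (Oasl2, Oas1a, Bst2, Trim30a and Lgals9), against 60.6% of all features (94 of 155).

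**Figure D5:**
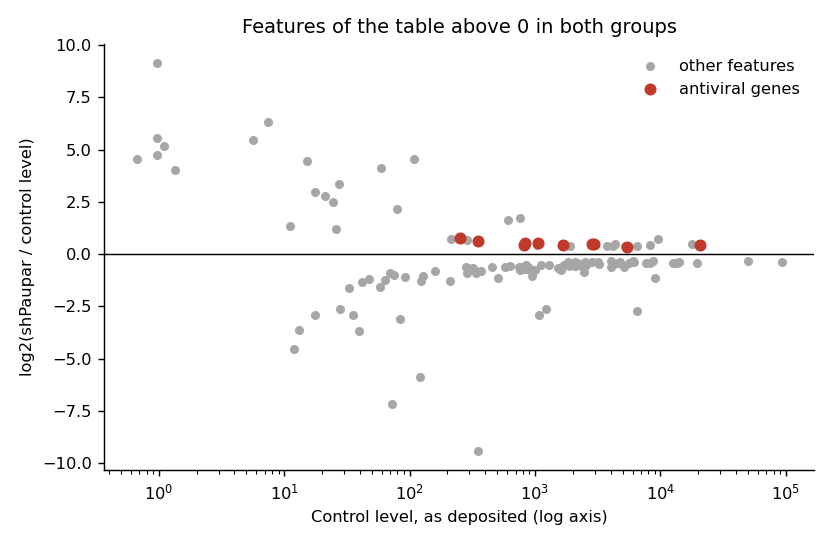
Log2 ratio of the shPaupar to the control level against the control level (log axis) for the 132 features above 0 in both groups. The antiviral genes (red) form a band of small positive values between 0.35 and 0.76 across control levels from 251 to 20532, while other features (grey) spread more widely at low levels.

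Outside the interferon list, the genes with log2 ratios closest to the median of the set, over 2 groups only and among 69 features of similar level, were Taf1d, Rps26, Rtl8a and Vamp3. Taf1d, a subunit of the RNA polymerase I selectivity factor, was at 4307 in control and 5985 in shPaupar cells (log2 ratio 0.47). Rps26, a protein of the small ribosomal subunit, was at 17900 and 24747 (0.47). Rtl8a, derived from a retrotransposon Gag gene, was at 1040 and 1415 (0.44), and the vesicle fusion protein gene Vamp3 at 8260 and 11118 (0.43). These genes were picked by the closeness of their log2 ratios to that median. Their likeness in size follows from the rule and is no finding.

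Other steps of the interferon pathway were looked up among the rows used here. Few rows are likely for a short list not chosen from them, since 155 features are listed and 27025 genes have a promoter entry. A list of 108 pathway genes, written with earlier results of these data known, had 11 rows in the authors' deposited table, 11 of them higher and 0 lower, of which 10 are the genes described above. Those 10 were chosen for being higher, against 34.8% higher among all 155 features, so nothing is read from this count. The list had 0 rows for 8 interferon genes, 0 for 6 receptor genes, 0 for 10 JAK, STAT and IRF genes, 0 for 5 inhibitor genes and 0 for 9 antigen presentation genes. Thus 2 of 9 oligoadenylate synthetase pathway genes, 2 of 12 GTPases, 3 of 23 restriction and other effectors and 3 of 13 ubiquitin or ADP-ribose regulators were rows. Values of genes that are not rows were not analysed here, so these counts do not show that the genes were unchanged. Counts of 0 in lists of 5 to 10 genes are likely beforehand, and nothing is read from them.

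The 1 further pathway gene was a sensor. Tlr4, the receptor for bacterial endotoxin, was at 79.1 in control and 349 in shPaupar cells, a log2 ratio of 2.14. This ratio is larger than that of any of the 10 genes, whose control levels start at 251. Tlr4 reached a level of 100 in shPaupar cells alone, which itself asks for a large ratio, so nothing is read from this rank. A row named Gm4951, which the file describes as an interferon inducible GTPase, was at 214 and 352 (log2 ratio 0.72), and it was picked out after its values were seen. The labelled cell type could not be checked with the 8 neural stem cell and astroglial markers listed for this purpose, of which 0 were rows. Other genes abundant in astroglia, picked out after their values were seen, were rows and lower in shPaupar cells. Only 34.8% of the 155 features were higher, so most rows are lower and nothing is read from this direction. The glutamate transporter gene Slc1a2 was at 50039 in control and 39308 in shPaupar cells (log2 ratio -0.35), and the GABA transporter gene Slc6a11 at 93469 and 71549 (-0.39). The water channel gene Aqp4 was at 4268 and 3118 (-0.45), and the aldolase gene Aldoc at 5655 and 4200 (-0.43). Rows were also 0 for 12 microglia and macrophage markers, 0 for 4 endothelial and 0 for 5 oligodendrocyte lineage markers, so the part of other cells in the interferon genes was not tested. Of 4 neuroblast markers Dcx, which encodes doublecortin, was a row, at 286 in control and 152 in shPaupar cells (log2 ratio -0.91).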

How the data were processed

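RNA was measured in 8 samples, and the labels' protocols give probe removal of ribosomal RNA, random priming and paired reads. Tools named in the submitters' processing notes are StringTie, HISAT, HISAT2, TopHat2 and CASAVA. For genome build, strand setting, counter and test, the choice is not given in the sources used here. In all, the authors' deposited table has 156 rows with 1 level (signal, normalization not stated) per group, a log2 fold change, a p-value and an adjusted p-value. A row shifted by 1 column was realigned and 1 repeated row was dropped, leaving 155 features. Levels below 1e-10 were taken as listed at 0.

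Log2 ratios were computed from the levels without a pseudocount and differed from the authors' deposited log2 fold changes by at most 0.00138 for the 10 genes. The planned comparison of single samples needs values per sample, so no test was run on the group levels. Loci of the 10 genes equal gene spans of GENCODE M21 (GRCm38), which gave exon lengths and, with its transcripts, the 100-base stretches found in other genes. Promoters are RefSeq sequences (GRCm38.p6). The motif search and the derivation of standard errors were checked on simulated data only for recovering planted motifs and known standard errors. These checks do not bear on false matches or on whether a Wald test lies behind the authors' p-values. The members, lists and the rule for named genes (the members, pathway rows and the 4 most alike features) were chosen with earlier results of these data known. Alternatives were the authors' log2 fold change, pseudocounts of 1 and 10, a level of at least 100, an adjusted p of 0.01, leaving out multigene families, and other motif letters and windows. Calculations used Python 3.11.15, pandas 2.3.3, NumPy 2.4.6, SciPy 1.17.1 and matplotlib 3.10.9.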

Additional observations from a re-analysis of the deposited data

How the results depend on the processing

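A pseudocount added to both levels cannot change the direction of a difference, and the authors' log2 fold change is the same contrast. The direction of the 10 genes was therefore fixed under the authors' log2 fold change and pseudocounts of 1 and 10. Only the size could move, with a largest shift of 0.023 in a log2 ratio. The median log2 ratio of the set stayed between 0.46 and 0.49 under these choices and without the members of multigene families. A minimum level of 100 removed none of the 10 genes. An adjusted p of 0.01 in place of 0.05 left 5 of the 10, as its construction allows, against 60.6% of all 155 features. The count of promoters with the ISRE core was 5 of 8 in the whole window and 5 before the start site, 4 with the core extended by CT, 3 with the 16-letter form and 2 with the GAS letters. Over all genes the shares were 3.99%, 3.46%, 0.303%, 0.0333% and 9.55%, in the same order. Allowing 1 mismatch, chosen after seeing the data, gave 7 of 8, where 38.9% of all genes also match. With the longest transcript in place of merged exons, the control levels per kilobase of Oasl2 (906) and Ifi44 (202) moved by over 1.5 times, and the order changed only by Oas1a and Mx2 trading the last places. The 16-letter form, the longest transcript, the split by gene span and the limit to features at 100 or more in both groups were likewise added after the data were seen. No paired analysis was possible because the table gives 1 level per group, and leaving out single replicates was not run for the same reason.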
